A study of Mus musculus with 10 samples.

Results

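Voltage-gated and ligand-gated ion channel genes were followed through RNA synthesis, processing and degradation in cultured mouse cortical neurons with and without Fmr1. The genes were taken by symbol from the table of RNA rates: potassium (Kcn), sodium (Scn), calcium (Cacn), HCN, TRP and CLC names formed the voltage-gated group, and glutamate, GABA-A, glycine and nicotinic receptor names formed the ligand-gated group. The rule found 119 of the 8590 genes in the table, 95 in the voltage-gated group and 24 in the ligand-gated group. The voltage-gated group follows names and not gating. It also holds 6 two-pore, 8 inward rectifier and 6 calcium- or sodium-activated potassium channels, 9 TRP and 4 CLC members, not all of which open with voltage. Of the 119, 97 encode pore-forming subunits and 22 do not. One of the latter, Trpc4ap, matched by name only and encodes a protein that binds a TRP channel. No purinergic P2X name matched, and channels without a row, among them Gria1, Gria2, Grin1, Grin2b, Scn2a and Kcnq3, were not analysed here.

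Neurons came from cortices of mouse embryos at embryonic day 18 and were grown for 14 days in vitro. Wild-type cultures were set against Fmr1-KO cultures, and both carried the strain name FVB.129P2-Pde6b+ Tyrc-ch/AntJ, so that strain's own alleles are shared by the groups. Newly made RNA was tagged for 20 or 60 min with 5-ethynyluridine (5EU) at 200 µM, a modified uridine that can be coupled to biotin and pulled down. Each genotype had 1 library at each labelling time, and these 4 labelled libraries give the 12 rate columns, 1 per library for each of 3 rates. The comparison of genotypes therefore rests on 2 libraries against 2, which differ in labelling time within each genotype. The labels do not say whether the libraries came from separate cultures, so the p-values measure only the spread between these libraries.

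Ion channels set how a neuron fires. Voltage-gated sodium and calcium channels carry depolarizing current, potassium channels repolarize the membrane or hold it at rest, and ligand-gated channels turn transmitter into current at synapses. FMRP, the RNA-binding protein encoded by Fmr1, is known to bind many neuronal mRNAs, channel mRNAs among them, and some channel proteins.

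Fmr1 itself had a deposited synthesis rate of 0.81 (20 min) and 0.692 (60 min) in wild-type libraries and 2.06 and 1.56 in knockout libraries. Its degradation rate was 0.0774 and 0.0672 in wild-type libraries and 2.58 and 2.66 in knockout libraries. In wild type, the synthesis rate divided by the degradation rate at 60 min, a level of mature RNA, was 10.3. The knockout level at 60 min was 3.2, or 31.1% of wild type. It was solved by another form, given below for knockout rates, which also uses processing rates. It is not the quotient of the knockout rates quoted here. Fmr1 had no processing rate at 20 min, so its solved level could not be compared between labelling times. The rates are per gene and do not show which exons the reads came from. Of marker genes, Rbfox3 of 7 pan-neuronal markers, 2 of 5 excitatory, 3 of 6 inhibitory, 2 of 7 astrocyte and 4 of 8 oligodendrocyte-lineage markers had a row, and none of the 7 microglial or 5 endothelial markers did. All markers with a row had both wild-type synthesis rates. Both knockout synthesis rates were present for Rbfox3, 2 of 2 excitatory, 1 of 3 inhibitory, 1 of 2 astrocyte and 1 of 4 oligodendrocyte-lineage markers. Read depth is not given with the rates and is unknown here. With RNA from whole cultures, fewer cells of a type and less RNA per cell cannot be told apart.

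In wild-type neurons, most channel mRNAs had a degradation rate below the median of all genes. The rates are in an inverse time unit that the sources used here do not give, so they are compared only with each other. The mean wild-type degradation rate of the 111 members with both values had a median of 0.085, below the median of 0.115 over 7914 genes, and 77 of the 111 lay below that median. All 7 calcium channel alpha1 subunits, the pores of voltage-gated calcium channels, lay below it, with a median of 0.0431. Two-pore potassium channels, which carry background leak current, had a median of 0.169, and 5 of their 6 members lay above it. Inward rectifiers (4 of 7 members above it, median 0.129) and voltage-gated potassium channels (13 of 22, median 0.123) lay near it.

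The fastest and slowest members stood more than 10-fold apart. Kcnf1, an electrically silent potassium channel subunit that modifies other channels, had the highest mean at 0.453, with 0.452 at 20 min and 0.454 at 60 min. Cacnb3, a cytoplasmic calcium channel beta subunit, had the lowest at 0.0284, with 0.0404 and 0.0163. The libraries of a genotype were not alike in all families. Calcium alpha1 subunits were lower at 60 min than at 20 min in 6 of 7 cases (median log2 ratio −1.62), against 8 of 22 voltage-gated potassium channels (median 0.15) and 52% of all genes (median −0.05).

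Degradation rates in the knockout were higher than in wild type for 64 of 83 channel genes, and for 3891 of 5716 genes overall. Among those called higher were 4 of 7 calcium channel alpha1 subunits, both HCN channels tested and the kainate receptor subunit Grik4. Of the 83 members with a rate in all 4 libraries, 25 passed an adjusted p of 0.05, 22 higher and 3 lower. The background was 23.1% of all 5716 genes tested, with 20.5% higher and 2.57% lower. The voltage-gated group had 18 higher and 3 lower of 67, and the ligand-gated group 4 higher and none lower of 16. The median log2 change was 0.91 in both groups, and 0.65 over all genes. Both knockout libraries lay above both wild-type libraries in 54 of the 83 members (52.6% of all genes) and below them in 13 (16.5% of all genes). The calls depend on how the libraries are scaled: with each library centred on its median, which removed a shift of 0.86, no member passed, and of all genes 1.61% did (32 higher and 60 lower, against 1174 and 147 before), and the medians were 0.06 and 0.05. Blocked on labelling time, the count was 47, 35 higher and 12 lower, at a background of 48% (38.2% higher and 9.76% lower). Quantile normalization gave 7 members at a background of 10.4%, the block with centring 24 at 36.2%, and the calls of the authors' deposited table were 36 at 36.3%. Without the wild-type 60 min library no member passed, without the wild-type 20 min library 22 did, and without the knockout 60 or 20 min library 2 and 1 did.

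**Figure D1:**
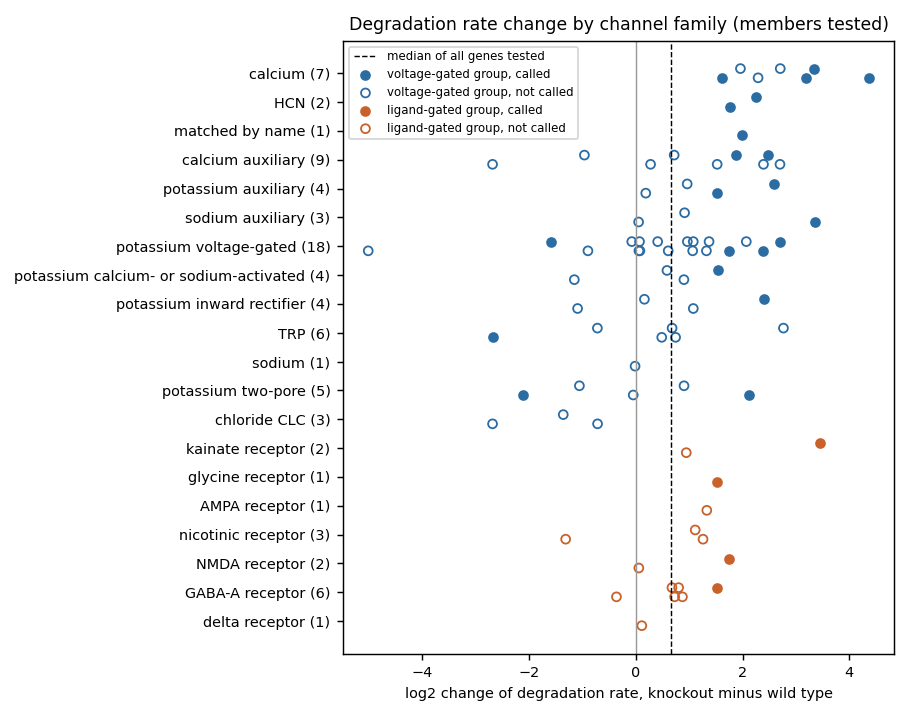
The horizontal axis is the log2 change of the degradation rate, knockout minus wild type, for the 83 members tested, grouped by family with the number of members in brackets. Filled points passed an adjusted p of 0.05, the dashed line is the median of all genes (0.65), and all 7 calcium alpha1 subunits lie to its right.

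A relation inside the deposited numbers bears on each of these rates and was found after their values were seen. In wild type, the synthesis rate divided by the degradation rate, which is a level of mature RNA, was the same at 20 and 60 min in all 5076 genes with 12 rates, 76 of them members (tolerance 0.001 on the log2 scale). In the knockout it was the same in 11 of 5076 genes. The knockout rates were described by another form: the synthesis rate minus the difference in total RNA level (knockout minus wild type), divided by the mature knockout level. A level solved by this form from the 20 min library matched the one solved from the 60 min library in all 5076 genes at that tolerance. In this form, a deposited knockout degradation rate holds the difference in level between the genotypes as a term beside the synthesis rate. The level is 1 per genotype and does not differ between the labelled libraries. The SEs and p-values given here for deposited degradation changes therefore hold no replicate spread of that level.

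Cacna1g shows the size of this term. Its solved mature level was 12.7 in wild type, against 8.11 in the knockout (1 level per genotype, no test). The level difference was −8.85 times the knockout synthesis rate at 20 min and −38.7 times at 60 min. In 35 of the 76 members the level difference was larger than the knockout synthesis rate in both libraries, and 20 of these were called higher and 15 were not. The 20 are all the members called higher that have a solved level, and their level was lower in the knockout by 0.1 to 0.65 on the log2 scale. This form ties a risen rate to a lower level, so the direction in those 20 is no separate finding. With the knockout rate recomputed as synthesis rate over solved level, 0 of the 76 members and 0 of the 5076 genes passed in limma (0 members and 0.0394% of genes with the block), and an unadjusted p under 0.05 was reached by 0 members and 78 genes. The deposited rates of the same genes gave 23 members and 1301 genes (25.6%). The recomputed rates divide synthesis rates by 1 level per genotype, so their spread within a genotype is that of the synthesis rates. On simulated synthesis rates the fit recovered 1% of genes changed by 2 log2 units. The 0 calls with recomputed rates therefore cannot show that these rates did not change. The recomputed changes of the 20 members lay between −0.27 and 0.94. The median change became −0.12 in the voltage-gated and 0.17 in the ligand-gated group, and 74 of 76 members lay within 1 log2 unit of 0, against 30 of 76 for the deposited rates.

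**Figure D2:**
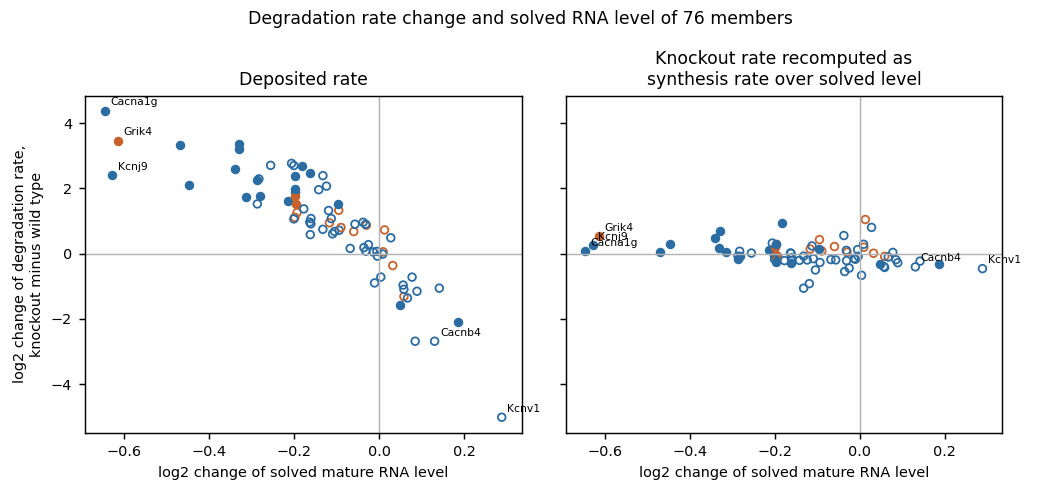
Each point is 1 of 76 members, with the log2 change of the solved mature RNA level on the horizontal axis and the log2 change of the degradation rate (knockout minus wild type) on the vertical axis; blue marks the voltage-gated and orange the ligand-gated group, and filled points passed an adjusted p of 0.05 with deposited rates. The deposited change (left) spans −5.01 to 4.37, while the recomputed change (right) of the same members lies within 1 log2 unit of 0 for 74 of 76.

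The solved levels differed between genotypes by −0.65 to 0.29 on the log2 scale. Over the 76 members the median log2 change of the mature level was −0.11, with 58 below 0 (76.3%), against −0.08 and 69.1% over all genes. It was −0.12 over the 62 voltage-gated and −0.09 over the 14 ligand-gated members. The lowest were Cacna1g (−0.65), Kcnj9 (−0.63) and Grik4 (−0.61), and the highest was Kcnv1 (0.29). One level per genotype can be solved from the table, so these changes have no replicate and no test. Across the 76 members, the deposited degradation change and the level change had a Spearman rho of −0.92 (−0.92 over 5070 genes), and the recomputed change had −0.38. Both share the level by construction.

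Calcium channel alpha1 subunits all had higher deposited degradation rates in the knockout, with no overlap between genotypes in any of the 7 (52.6% of all genes). When the libraries were centred all 7 stayed above 0 (0.76 to 3.52), as did 2545 of all 5716 genes. With recomputed rates they lay between −0.21 and 0.18, with Cacna1e below 0. Cacna1g, a low-voltage-activated T-type channel, had rates of 0.0666 (20 min) and 0.0126 (60 min) in wild-type libraries and 0.627 and 0.577 in knockout libraries. Both knockout values were far above both wild-type values, and the change was 4.37 ± 0.87 on the log2 scale (SE; 20.7-fold, adjusted p = 0.036, limma). Recomputed from the solved level, its change was 0.07. Cacna1i, another T-type channel, had 0.0406 and 0.0455 in wild-type libraries and 0.442 and 0.424 in knockout libraries, a change of 3.33 ± 0.32 (adjusted p = 0.0235).

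Cacna1b, the N-type channel of presynaptic terminals, had 0.0618 and 0.0178 in wild-type libraries and 0.334 and 0.277 in knockout libraries, a change of 3.2 ± 0.69 (adjusted p = 0.0416). Its wild-type libraries differed from each other by a larger factor than its knockout libraries did. Cacna1c, the L-type channel of cell bodies and dendrites, had 0.0956 and 0.068 against 0.267 and 0.23 (1.62 ± 0.36, adjusted p = 0.0442). The remaining alpha1 subunits did not pass without the block on labelling time: Cacna1a, the P/Q-type channel, had 0.0745 and 0.0183 against 0.277 and 0.21 (2.71 ± 0.76, adjusted p = 0.0679), Cacna1d differed by 2.29 (adjusted p = 0.0637) and Cacna1e by 1.96 (adjusted p = 0.0934). With the block all 3 passed in limma, at adjusted p = 0.0203 for Cacna1a, 0.0203 for Cacna1d and 0.0246 for Cacna1e.

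**Figure D3:**
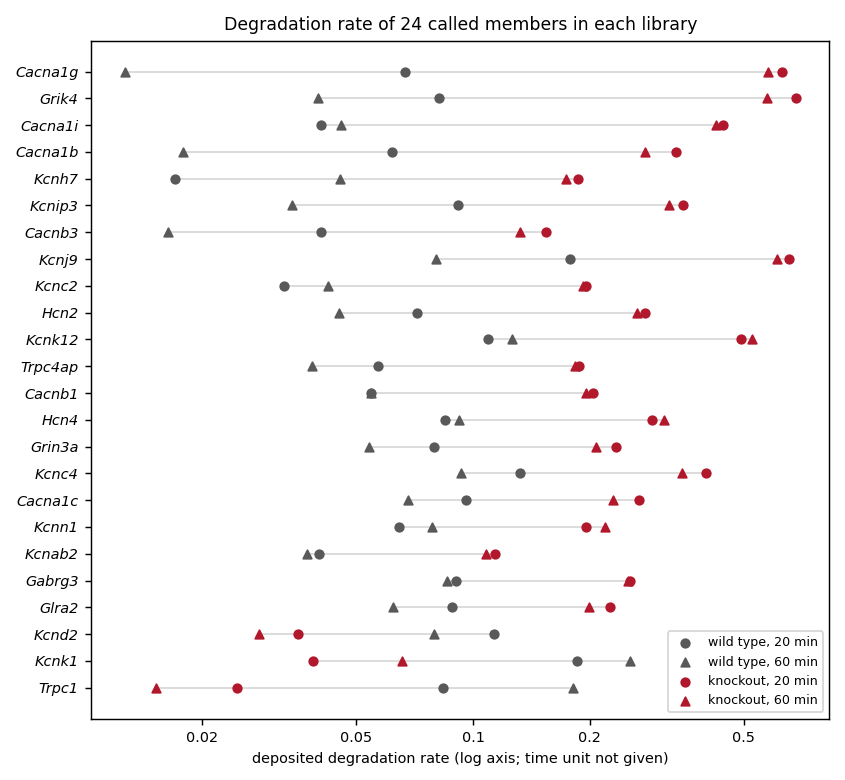
Deposited degradation rate on a log axis for 24 of the 25 members that passed an adjusted p of 0.05, 1 row per gene, with grey for wild type and red for knockout, circles for 20 min and triangles for 60 min. Both knockout points lie right of both wild-type points in the upper 21 rows and left of them for Kcnd2, Kcnk1 and Trpc1.

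Of the calcium channel auxiliary subunits, 9 of 11 were tested and 2 were called (22.2%, near the background of 23.1%), both higher and both beta subunits, which bring alpha1 subunits to the membrane. Cacnb3 had 0.0404 and 0.0163 in wild-type libraries and 0.154 and 0.132 in knockout libraries (2.47 ± 0.55, adjusted p = 0.0438). Cacnb1 had 0.0545 in both wild-type libraries and 0.204 and 0.196 in the knockout (1.88 ± 0.31, adjusted p = 0.0274). Cacnb4 did not pass and had 0.137 and 0.183 in wild-type libraries and 0.00986 and 0.0616 in knockout libraries, with groups that do not overlap (−2.68 ± 0.96, adjusted p = 0.107, and 0.0321 with the block). Its change was −4.01 without the knockout 60 min library, −1.36 without the knockout 20 min library, −1.44 with a pseudocount, −0.41 with recomputed rates and −1.07 in the authors' deposited table. Cacng2, the AMPA receptor auxiliary subunit stargazin, differed by 0.72 (adjusted p = 0.182).

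Of the 6 sodium channel members, 3 alpha and 3 auxiliary subunits, 4 had all 4 rates and 1 was called higher. The background was 23.1% of all genes called and 20.5% called higher. Of the alpha subunits only Scn3a, abundant in the embryonic brain, had all 4 rates, with 0.0676 and 0.048 in wild-type libraries and 0.0761 and 0.0419 in knockout libraries; the groups overlap (−0.01 ± 0.46).

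Voltage-gated potassium channels were called in both directions: 3 of 18 were called higher and 1 lower, a share of 22.2% near the background of 23.1%. Kcnh7, an ERG-type channel, had 0.0171 and 0.0453 in wild-type libraries and 0.186 and 0.173 in knockout libraries (2.69 ± 0.57, adjusted p = 0.0403); in the authors' deposited table its change was 1.32 and was not called (adjusted p = 0.0821). Kcnc2, a fast-repolarizing Kv3 channel, had 0.0326 and 0.0421 against 0.195 and 0.192 (2.39 ± 0.34, adjusted p = 0.0235), and the third was its relative Kcnc4 (1.75 ± 0.36, adjusted p = 0.0384). Kcnd2, which encodes the Kv4.2 channel of dendritic A-type current, fell: 0.113 and 0.0792 in wild-type libraries and 0.0353 and 0.0281 in knockout libraries (−1.59 ± 0.37, adjusted p = 0.0485). The call was lost with a pseudocount (−0.89, adjusted p = 0.0566, limma) and with a trended prior (adjusted p = 0.073). Both knockout values were below both wild-type values, and its recomputed change was −0.32.

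Kcnv1, a silent subunit that modifies other potassium channels, had the most negative change of all members in the deposited rates. It had 0.249 and 0.349 in wild-type libraries and 0.00164 and 0.0508 in knockout libraries. The groups do not overlap, and the knockout libraries lay far apart (−5.01 ± 1.72, adjusted p = 0.099, and 0.0318 with the block), with a change of −7.25 at 20 min and −2.78 at 60 min. Its change was −7.49 without the knockout 60 min library, −2.54 without the knockout 20 min library and −2.39 with a pseudocount. In the authors' deposited table it was −2.25 and called (adjusted p = 0.0205), and Trpc1 was lower there at −2.6. The difference in level was 0.991 of the synthesis rate at 20 min and 0.789 at 60 min, which leaves the deposited rates of 0.00164 and 0.0508. Recomputed, its change was −0.46. Kcna2, a carrier of axonal current, differed by −0.9 without passing. Kcna1 had no wild-type rate.

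Among other potassium channels, Kcnj9, a G-protein-gated inward rectifier subunit, had 0.178 and 0.0801 in wild-type libraries and 0.655 and 0.608 in knockout libraries (2.4 ± 0.5, adjusted p = 0.0387). Kcnk12, a two-pore channel, had 0.109 and 0.126 against 0.493 and 0.523 (2.11 ± 0.32, adjusted p = 0.0247), while another two-pore channel, Kcnk1, fell from 0.186 and 0.254 to 0.0386 and 0.0656 (−2.11 ± 0.43, adjusted p = 0.0377). Two-pore channels thus held calls of both signs among 5 tested. Of the calcium- or sodium-activated channels, Kcnn1, a small-conductance channel, was called higher (1.54 ± 0.33, adjusted p = 0.0409), and Kcnn2 differed by 0.58 without passing. Of auxiliary subunits, Kcnip3, a calcium-binding partner of Kv4 channels, had 0.0914 and 0.034 against 0.348 and 0.321 (2.58 ± 0.58, adjusted p = 0.0444), and Kcnab2, a Kv beta subunit, changed by 1.52 ± 0.31 (adjusted p = 0.038). Kcnip1 differed by 0.19 with overlapping groups.

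Both HCN channels tested were called higher; HCN channels carry the pacemaker current activated by hyperpolarization. Hcn2 had 0.0716 and 0.0451 in wild-type libraries and 0.278 and 0.265 in knockout libraries (2.26 ± 0.39, adjusted p = 0.0286), and Hcn4 changed by 1.76 ± 0.32 (adjusted p = 0.0296). Recomputed, both lay below 0, at −0.15 and −0.06. In the TRP family 1 of 6 was called (16.7%): Trpc1, a calcium-permeable cation channel, fell from 0.0837 and 0.181 to 0.0246 and 0.0152 (−2.67 ± 0.54, adjusted p = 0.037). Trpm2, a calcium-permeable channel opened by oxidative stress, had the highest change of the family, with 0.0507 and 0.0155 in wild-type libraries and 0.22 and 0.164 in knockout libraries. Its change of 2.77 ± 0.67 did not pass (adjusted p = 0.0521, limma), passed with the block (0.0159) and was called in the authors' deposited table (adjusted p = 0.00637); recomputed, it was 0.32. Trpm7 differed by 0.48. Trpc4ap, which is no channel, changed by 1.99 ± 0.37 (adjusted p = 0.0312). The CLC family was the only one with 2 or more members tested and all changes below 0: Clcn6 −2.69, Clcn3 −1.36 and Clcn2 −0.72, of which none passed. With the block Clcn6 (adjusted p = 0.0298, limma) and Clcn3 (0.0245) passed. Clcn6 had −1.18 in the authors' deposited table (adjusted p = 0.12), −1.1 with a pseudocount and −1.48 without the knockout 20 min library, Clcn3 had −0.76 with a pseudocount, and Clcn2 had 0.42 without the knockout 60 min library. Their recomputed changes also lay below 0 (−0.66 to −0.1).

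In the ligand-gated group, 4 of 16 members were called and all 4 were higher, in 4 different receptor families; this share of 25% is near the background of 23.1% (20.5% higher). Grik4, a kainate receptor subunit with high agonist affinity, had 0.0818 and 0.0398 in wild-type libraries and 0.681 and 0.575 in knockout libraries, 11-fold higher with groups far apart (3.46 ± 0.48, adjusted p = 0.0235). Grin3a, an NMDA receptor subunit that lowers calcium permeability, had 0.0791 and 0.054 against 0.234 and 0.207 (1.75 ± 0.37, adjusted p = 0.0395). Gabrg3, a GABA-A receptor gamma subunit, had 0.0905 and 0.0858 against 0.253 and 0.251 (1.52 ± 0.31, adjusted p = 0.0378). Glra2, the embryonic glycine receptor alpha subunit, had 0.0883 and 0.0622 against 0.226 and 0.199 (1.52 ± 0.36, adjusted p = 0.0495). It lies just under the threshold.

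The other ligand-gated members tested did not pass without the block. Of the 6 GABA-A subunits tested, 5 lay above 0, with Gabrb2 at −0.36. Grin2a, the NMDA receptor subunit that rises after birth, had 0.0873 and 0.0687 in wild-type libraries and 0.115 and 0.0561 in knockout libraries; the groups overlap (0.06 ± 0.49). Gria4 was the only AMPA receptor subunit with 4 rates and differed by 1.33 (adjusted p = 0.0989, and 0.0354 with the block). Among nicotinic receptor subunits, Chrna7 differed by 1.26 (adjusted p = 0.0641, and 0.0294 with the block) and Chrnb2 by 1.11 (0.0804 and 0.0426), whereas Chrna4 differed by −1.32 (0.0543 and 0.0281). Grid1, an orphan receptor that organizes synapses, differed by 0.11.

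Calls could be made only for genes with 4 rates, and rates were missing more often in the knockout. Of 111 members with both wild-type degradation rates, 19 had neither knockout rate (17.1%, against 19.5% of all genes). Among them were Scn1a, Kcnh2, Cacna2d1, Gabra5, Gabrb1, Glrb, Gria3, Grik1 and Grik2. The ligand-gated group held 6 of the 19, 25% of its 24 members. Another 9 members with both wild-type rates lacked 1 knockout rate, among them Kcnj3, Kcnma1 and Scn8a. The reverse was seen in Kcna1, Kcnd1, Kcng1 and Trpm4, with both knockout rates and no wild-type rate. Clcn5, Kcnip2 and Kcns2 had no rate in any library. A missing rate is given without a value in the table and does not measure absence of RNA. Knockout libraries had a synthesis rate for 6480 (20 min) and 6308 (60 min) genes but a degradation rate for 6381 and 6165. In wild type both counts were 7938 and 7969. By the form above, a level rise as large as the synthesis rate leaves no knockout degradation rate above 0. Counts and medians would then lack such falls. Whether this accounts for missing rates was not tested.

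Channel mRNAs that have been linked to FMRP by name, recalled from the literature and incomplete, were called in both directions. Of 9 with a row, 7 were tested: Cacna1b and Cacna1c were called higher, and Kcnd2 lower. Kcnc1, Kcnt1, Kcnmb4 and Grin2a did not pass, with differences of 0.96, 0.9, 0.96 and 0.06. Of 24 other ion channels tested (mechanosensitive, anoctamin, intracellular calcium release and others), 3 were called higher and 1 lower (16.7% in all), and of 39 auxiliary and anchoring proteins, 9 were called higher and 1 lower (25.6%), beside the background of 23.1%.

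The degradation change was higher in members with a higher transcript GC content. Across the 83 members the Spearman rho with GC content of the transcript with the longest coding sequence was 0.4, and 0.26 with GC at the third codon position (GC3), against 0.31 and 0.2 over 5591 genes. In the voltage-gated group it was 0.48 over 67 members, and in the ligand-gated group −0.06 over 16. The solved level had the opposite sign, −0.49 over 76 members against −0.31 over 5030 genes, and the recomputed degradation change had −0.07 against −0.18. These are descriptions across genes that share 4 libraries, and genes are not replicates. Members tested spanned a median of 72.9 kb of genome against 29.3 kb for all genes tested, and the rho of the change with span was 0.01.

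**Figure D4:**
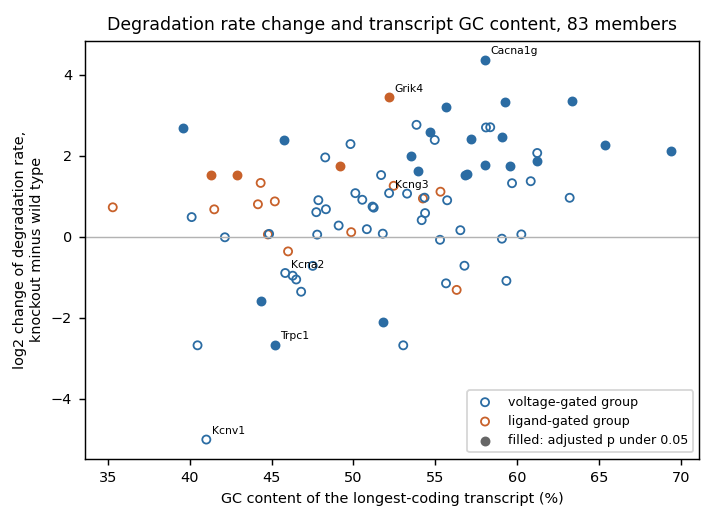
GC content of the transcript in percent on the horizontal axis and log2 change of the deposited degradation rate (knockout minus wild type) on the vertical axis, 1 point per member tested; filled points passed an adjusted p of 0.05. Voltage-gated members (blue) rise from lower left to upper right with wide scatter, and Kcnv1 is the lowest point.

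The coding sequence around the potassium selectivity filter shows what differs in GC between relatives whose protein is nearly fixed there. Of 18 voltage-gated potassium members tested, 8 hold 1 match to the classical five-residue filter signature in the coding sequence of GENCODE M21 (GRCm38). The 3 with the lowest and the 3 with the highest degradation change among these are shown, 5′ to 3′ on the coding strand, as 10 codons with the third base of each codon in capitals. The filter is codons 4 to 8.
Kcnv1: tcCatGacTacAgtAggAtaTggGgaCatT
Kcna2: tcCatGacAacTgtAggCtaTggAgaCatG
Kcna3: acCatGacAacTgtTggTtaTggTgaTatG
Kcnf1: acCatGacCacAgtGggCtaTggTgaCatC
Kcna6: acAatGacCacGgtAggTtaTggGgaCatG
Kcng3: tcTatGacTacAgtTggCtaTggAgaTatG
G or C stands at the third base of 4, 5, 3, 7, 6 and 3 of the 10 codons in this order, which does not follow the order of the changes (−5.01, −0.9, 0.06, 0.41, 1.06 and 1.08). Over the whole coding sequence, GC3 was 59.4% in Kcnv1 and 60.7% in Kcna2, against 73.9% in Kcna3, 77.6% in Kcnf1, 69.2% in Kcna6 and 77.1% in Kcng3. Kcnv1 lies on chr15:45106284-45114920 (minus strand) and Kcna2 on chr3:107101146-107115005 (plus strand), both protein-coding.

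No synthesis rate of a channel gene passed the test between genotypes: none of the 85 members tested did, at a background of 0% of 5794 genes. In limma, an unadjusted p under 0.05 was reached by 0 members and 18 of all genes. The authors' deposited table also had none. The median log2 difference was −0.24 over the 69 voltage-gated and 0.02 over the 16 ligand-gated members, against −0.03 over all genes. Below 0 lay 54 of 69 voltage-gated members and 7 of 16 ligand-gated members, and 3094 of all 5794 genes. Both knockout libraries were below both wild-type libraries in 14 members (9.2% of all genes) and above them in 3 (8.92% of all genes), Gabrg1, Gabrg3 and Trpm7.

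Some synthesis differences were wide without passing. Gabrg1, a GABA-A receptor gamma subunit, had synthesis rates of 0.0964 (20 min) and 0.208 (60 min) in wild-type libraries and 0.296 and 0.294 in knockout libraries (1.06 ± 0.51). Trpm7, a channel fused to a kinase, had 0.499 and 0.422 against 0.931 and 0.716 (0.83 ± 0.4). In both genes the groups do not overlap. Cacna1g, at the top of the degradation list, had a synthesis rate of 0.844 and 0.16 in wild-type libraries and 0.516 and 0.118 in knockout libraries, with overlap between genotypes (−0.58 ± 1.07).

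**Figure D5:**
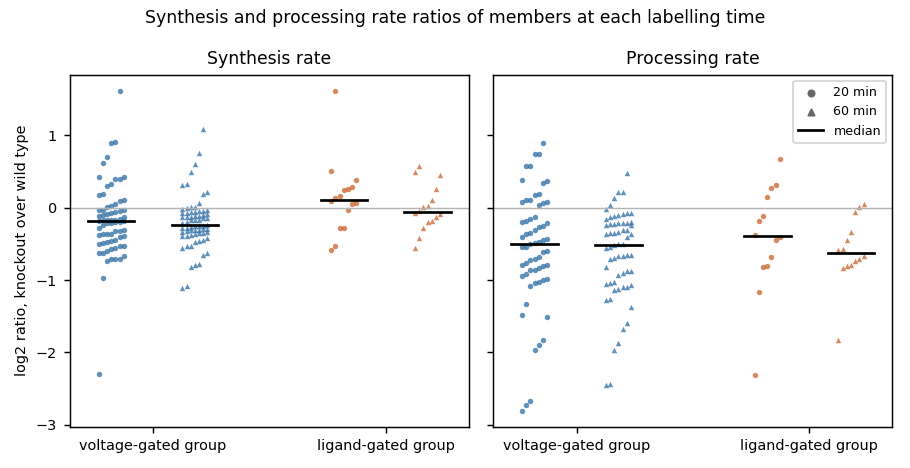
Log2 ratio of knockout over wild type for the synthesis rate (left) and the processing rate (right) of each member tested, at 20 min (circles) and 60 min (triangles), with medians as black bars. Processing ratios lie mostly below 0 at both times in both groups, and synthesis ratios lie around 0.

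Processing rates, which measure how fast intron-containing RNA is turned into mature RNA, were lower in the knockout for most channel genes without passing the test. None of 76 members passed, at a background of 0% of 5082 genes, while 7 members and 783 of all genes reached an unadjusted p under 0.05 in limma. The median log2 difference was −0.43 over 62 voltage-gated and −0.49 over 14 ligand-gated members, against −0.36 over all genes, and 67 of 76 members lay below 0, as did 3561 of all 5082 genes. Centred on library medians, which removed a shift of −0.35, the medians were −0.08 and −0.14 and 45 of 76 were negative. Blocked on labelling time, 18 members passed and all 18 were lower, 17 voltage-gated and 1 ligand-gated, at a background of 25.6% (6.26% higher and 19.3% lower). With centring added 6 passed (13.5%), and with recomputed rates and the block 11 (15.5%).

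The 2 widest processing differences in the main fit were in potassium channels. With recomputed rates the lowest change was −1.95 in the ligand-gated and −1.85 in the voltage-gated group, and with a pseudocount −1.84 and −1.79. In the authors' deposited table Kcnj9 was also the lowest member (−2.62), but Kcnn1 (−2.51) and Chrnb2 (−2.08) lay below Kcna2 (−1.93). Kcnj9 had 8.41 and 3.78 in wild-type libraries and 1.2 and 0.693 in knockout libraries (−2.63 ± 0.58, adjusted p = 0.156, and 0.00834 with the block). Kcna2, an axonal potassium channel, had 4.7 and 5.89 against 0.708 and 1.09 (−2.58 ± 0.45, adjusted p = 0.109, and 0.00834 with the block). Kcnd2 had 13.6 and 9.51 against 3.49 and 3.15 (−1.78 ± 0.43, adjusted p = 0.173, and 0.0132 with the block). In Kcnj9, Kcna2 and Kcnd2 both knockout values were below both wild-type values. Chrnb2, the main beta subunit of brain nicotinic receptors, was the 1 ligand-gated member past the block test, with 37.8 and 28.2 in wild-type libraries and 7.58 and 7.9 in knockout libraries (−2.08 ± 0.42, adjusted p = 0.139, and 0.0113 with the block).

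The processing rate depends on the level of intron-containing RNA, and many genes shared the same ratio of knockout over wild-type level. There were 1329 distinct ratios over 5076 genes and 67 over the 76 members, and 37 members had a ratio that 10 or more genes shared. Solved from the rates, the log2 change of this level had a median of 0.27 over the 76 members, 62 of them above 0 (81.6%, against 70.9% of all genes). Kcnv1 and Chrnb2 had the same value, 1.67, which 66 genes shared, and Kcna4 and Trpm7 shared 1.26 with 101 genes in all. The commonest value, −0.33, was held by 326 of 5076 genes, Cacna2d2 and Clcn2 among them. Divided by this commonest ratio, the knockout over wild-type ratio was a ratio of whole numbers no larger than 10, within a relative tolerance of 1e-07, in 26 of 76 members and 2295 of 5076 genes. It was 4 to 1 for Kcnv1 and Chrnb2, 7 to 2 for Kcnj9 and 3 to 2 for Cacna1g. The number of reads behind these levels is not given.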

How the data were processed

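RNA was labelled with 5EU, spiked with 10% fly and 10% yeast RNA, depleted of ribosomal RNA and pulled down, per the labels' protocols. The submitters' processing notes name cutadapt, Bowtie2, TopHat2, HISAT2 and limma and the builds mm10, dm6 and sacCer3, with no versions or order. The authors deposited synthesis, processing and degradation rates per gene and labelled library (a signal that is never negative, in a time unit not given in the sources used here), and tables of log2 change, average log2 level, p-value and score from limma. The labels tie the rate tables to input replicate 1 and the unlabelled pull-downs. Depth is not given, so no counting interval was computed.

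Rates were log2-transformed without a pseudocount, kept where above 0 in all 4 labelled libraries, and fitted by limma 3.58.1 (R 4.3.3) with genotype as the only term, two-sided, with Benjamini-Hochberg adjustment over all genes tested and a threshold of 0.05. Errors are SEs of the fit. On simulated rates the same script recovered 56% of genes changed by 4 log2 units and 4% of those changed by 2 among 5716 genes for degradation. Labelling time pairs the libraries by label: the change from 20 to 60 min had a Spearman rho of 0.65 between genotypes over 5716 genes for degradation, 0.73 for synthesis and 0.73 for processing. Levels were solved from the rates and knockout rates recomputed after the values were seen. Alternatives were centring, quantile normalization, a pseudocount, a filter on low rates, a trended prior, a stricter threshold, the block and leaving out each library.

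Members and lists were chosen with earlier results of these data known. Named were the 12 members with the largest called rise, all called falls and textbook members of each family; the other members named were chosen after their values were seen. Results of some single members, 1 of the 25 called among them, are not reported here, and counts and medians include them. Coordinates, GC content and coding sequences come from GENCODE M21 (GRCm38, the assembly of mm10), in which all 119 members matched.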

Additional observations from a re-analysis of the deposited data

How the results depend on the processing

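The 4 libraries limit every call, and leaving out 1 of them shows how far. The count of 25 members called for degradation ranged from 0 to 22 with 1 library left out (0 without the wild-type 60 min library, 22 without the wild-type 20 min library, 2 without the knockout 60 min library, 1 without the knockout 20 min library), the lone library being assumed to vary like the other genotype. It was 47 with labelling time as a block, with all 25 among them, 24 with the block and centring (9 higher and 15 lower, 11 of the 25 among them), 0 with centring, 7 with quantile normalization (all 7 among the 25), 0 at a threshold of 0.01, and 36 in the authors' deposited table (24 of the 25 among them). With recomputed knockout rates, whose spread within a genotype is that of the synthesis rates, it was 0, and 0 with the block. Of all genes, 1321 were called, 2741 with the block, 92 with centring, of which 34.8% were higher against 88.9%, and 596 with quantile normalization. For processing, 0 members were called, 18 with the block, 6 with the block and centring, 11 with recomputed rates and the block, and 0 to 1 with a library left out. For synthesis, no member was called under any setting. The block ended no degradation call and turned no direction.

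The median degradation change of voltage-gated members (0.91) was 0.0558 with centring, also with the block, 0.14 with quantile normalization, 0.61 with a pseudocount, −0.12 with recomputed rates and 0.63 to 1.00 with a library left out. That of ligand-gated members (0.91) was 0.0515 with centring, also with the block, 0.299 with quantile normalization, 1.19 without the lowest 25% of mean rates, 0.64 with a pseudocount, 0.17 with recomputed rates and 0.88 to 1.05 with a library left out. The synthesis medians were −0.17 with a pseudocount and −0.35 to −0.0873 with a library left out for voltage-gated members, and −0.0918 to 0.19 for ligand-gated members. The processing medians of voltage-gated members were −0.0823 with centring, also with the block, −0.0575 with quantile normalization, −0.36 with a pseudocount, −0.39 in the authors' deposited table and −0.76 to −0.28 with a library left out. Those of ligand-gated members were −0.141, −0.104 and −0.65 to −0.31 under centring (also with the block), quantile normalization and leaving out a library.

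Directions of named members turned in these cases. With centring, also with the block, and with quantile normalization, the degradation change was −0.139 and −0.0697 for Cacng2, −0.75 and −0.37 for Grid1, −0.801 and −0.576 for Grin2a, −0.8 and −0.737 for Kcna3, −0.448 and −0.276 for Kcnf1, −0.67 and −0.35 for Kcnip1, −0.27 and −0.26 for Kcnn2, and −0.37 and −0.37 for Trpm7. With recomputed rates, also with the block, it was −0.206 for Cacna1e, −0.0389 for Cacnb1, −0.27 for Cacnb3, −0.27 for Cacng2, −0.088 for Chrna7, −0.0843 for Chrnb2, 0.0113 for Gabrb2, −0.15 for Hcn2, −0.0596 for Hcn4, −0.175 for Kcna6, −0.55 for Kcnip1, −0.26 for Trpc4ap and 0.29 for Scn3a. Scn3a was also 0.0023 with a pseudocount and 0.022 in the authors' deposited table. With a library left out the change ranged from −1.85 to 0.416 for Clcn2, from −0.19 to 0.303 for Kcna3, from −0.11 to 0.33 for Grid1, from −0.47 to 0.58 for Grin2a, from −0.39 to 0.77 for Kcnip1, from −0.61 to 2.41 for Kcnt1 and from −0.45 to 0.42 for Scn3a. Of named members that were tested and did not pass, the authors' deposited table called Cacna1a, Cacna1d, Cacna1e, Cacna2d2, Chrna7, Gria4, Kcnv1 and Trpm2, and it also called Kcnj3, which lacked 1 knockout rate and was not tested here. The cause of these turns was not tested, except that recomputing removes the level difference by construction.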
